A study of Mus musculus with 3 samples.

Results

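The shortest reads of the series, distinct sequences of 18 and 19 nt with their read counts, are described here by where they come from. They were chosen by length alone and numbered 126414 of the 4182219 distinct sequences of all lengths, with 840395 of 55350573 reads. The study sequenced small RNA of CD1 mice in 3 libraries, 1 for each source: mature sperm released from the cauda epididymis, adult testis and adult uterus. The labels describe a lysis buffer meant to remove somatic cells from sperm, in text attached to all 3 samples, and name no other treatment and no genotype. Per group there was 1 library, so no test between sources was possible. All intervals are exact 95% intervals that cover counting error only, since PCR copies are not independent molecules.

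Small RNA of this size sits below the usual lengths of microRNAs, which guide Argonaute proteins to messenger RNAs, and of piRNAs, which silence transposons in germ cells. Reads of such length are known to arise in several ways: microRNAs lose bases at the 3′ end, tRNAs are cut into fragments from either end, and ribosomal and spliceosomal RNAs break down into short pieces. A 5′ fragment of a tRNA starts at the first base of the mature tRNA, and a 3′ fragment ends in CCA, which is added after transcription.

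The sequences below are those on which the main differences between the libraries turn, as read in the deposited tables. In the ribosomal and spliceosomal lines nothing is in capitals. The first line comes from a contig of joined reads, of 3046 bases, and begins at its base 10. That contig is not the longest, since another had 3062 bases. In the tRNA lines the capitals mark bases 8 to 15, where tRNA genes hold the first box of their internal promoter. The anticodons named there are the most frequent ones in longer reads with the same start. In the microRNA lines the capitals mark the seed, bases 2 to 8, which pairs with target messenger RNAs. The line headed let-7a-5p and let-7c-5p names the microRNAs that share its first 18 bases. Its base 19 is that of let-7c-5p and not of let-7a-5p.
Start of the longest contig: cgcgacctcagatcagacg
U5 snRNA start: atactctggtttctcttc
U12 snRNA, internal: gaagaatttttgagcgggt
mt-Ts2 start: aagaaagattgcaagaact
Leu-CAG tRNA start: gtcaggaTGGCCGAGcggt
Asp-GTC tRNA start: tcctcgtTAGTATAGtgg
Val-GAC tRNA start: gtttccgTAGTGTAGtgg
let-7b-5p, 19 nt: tGAGGTAGtaggttgtgtg
let-7i-5p, 19 nt: tGAGGTAGtagtttgtgct
let-7a-5p and let-7c-5p, 19 nt: tGAGGTAGtaggttgtatg
miR-27a-3p and miR-27b-3p, 18 nt: tTCACAGTggctaagttc
miR-101b-3p, 19 nt: gTACAGTActgtgatagct
miR-30a-5p, 19 nt: tGTAAACAtcctcgactgg

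Reads of 18 and 19 nt made up a different share of each library. In uterus they were 4.21% of 15876066 reads (4.20 to 4.22), in sperm 1.02% of 15690722 (1.02 to 1.03) and in testis 0.0444% of 23783785 (0.0435 to 0.0452), with no overlap of the intervals. They comprised 669066 reads of 86152 sequences in uterus, 160777 reads of 40710 sequences in sperm and 10552 reads of 5754 sequences in testis. About as many sequences in each library were seen with a single read: 80.0% in uterus, 79.9% in sperm and 83.5% in testis. The 10 most abundant sequences held 29.1% of the reads in sperm, against 15.1% in uterus and 15.1% in testis.

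**Figure D1:**
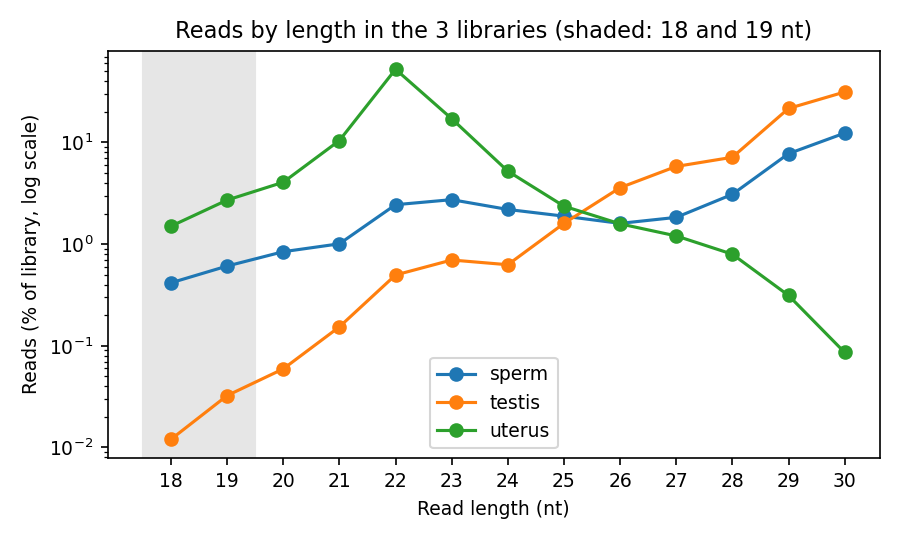
Share of each library's reads (percent, log axis) by read length from 18 to 30 nt, 1 line per library. At 18 and 19 nt (shaded) uterus lies highest (1.501% and 2.71%), sperm next (0.416% and 0.608%) and testis lowest (0.0120% and 0.0324%).

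The libraries shared few of these sequences, but the shared ones were abundant. Overlap was not counted over sequences of all lengths, and most sequences of each library had a single read. Low sharing can therefore not be called a trait of this length. Sperm and uterus had 4804 sequences in common, testis and uterus 996, and sperm and testis 977. The 575 sequences found in all 3 libraries were 1.41% of the sequences of sperm and held 23.04% of its reads. In uterus they were 0.667% of the sequences and held 35.2% of the reads, and in testis they were 9.99% and held 15.9%.

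Most of the reads had no full match to an annotated transcript. A read was placed by a full-length match, in sense, to GENCODE transcripts or RefSeq microRNA hairpins, and nuclear tRNAs were placed mostly by sequence pattern, since few have a GENCODE transcript. No match was found for 63.4% of sperm reads, 70.6% of testis reads and 66.4% of uterus reads. Among the placed reads the sources differed. Sperm was led by nuclear tRNA with 14.6% of its reads (14.5 to 14.8), followed by ribosomal RNA with 7.12%, other GENCODE genes with 7.09%, other small noncoding RNA with 4.20%, microRNA hairpins with 2.59% and mitochondrial transcripts with 0.911%. Uterus was led by microRNA hairpins with 17.9% (17.8 to 18), followed by ribosomal RNA with 7.19%, other GENCODE genes with 6.07% and nuclear tRNA with 2.06%. Testis was led by other GENCODE genes with 20.4% (19.6 to 21.2), followed by microRNA hairpins with 6.34% and ribosomal RNA with 1.38%. Sense matches covered 26.9% of sperm reads, 29.2% of testis reads and 33.1% of uterus reads. Antisense matches, counted as a background, covered 13.7%, 25.9% and 11.4%, including reads that also match in sense. Antisense matches alone covered 2.26%, 12.7% and 2.69%.

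Much of the unmatched material could be joined into contigs from the reads themselves, a step added after the data were seen. Overlapping reads of all 3 libraries gave 80 contigs. The first, of 3046 bases, holds the leading sequence of both sperm and uterus near its start. That sequence reads as the generally known start of 28S ribosomal RNA. With 2 further long contigs the first contig adds up to 4748 bases. No reference for 28S was used, so the name rests on general knowledge. A contig of 178 bases was identical to the annotated 5.8S gene n-R5-8s1 at 128 of 148 bases. Its name, 5.8S-type, was also given by general knowledge and not by a rule on this identity. A further 2 contigs hold the sequences that match Gm42418 (chr17:39846958-39848788, GRCm38), a symbol that RefSeq lists as a synonym of the 18S ribosomal RNA gene Rn18s-rs5. With these contigs as references, all ribosomal reads together came to 63.4% of the 18 and 19 nt reads in uterus (63.3 to 63.6), 42.9% in sperm (42.6 to 43.1) and 12.96% in testis (12.3 to 13.6). The 28S-type contigs, placed by length alone, supplied 52.4%, 28.8% and 10.6% of the reads in this order. The share with neither a match nor a contig fell to 12.2% in uterus, 23.4% in sperm and 46.7% in testis. Unmatched reads on other contigs, whose origin is unknown too, were a further 2.255%, 3.17% and 12.2%.

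**Figure D2:**
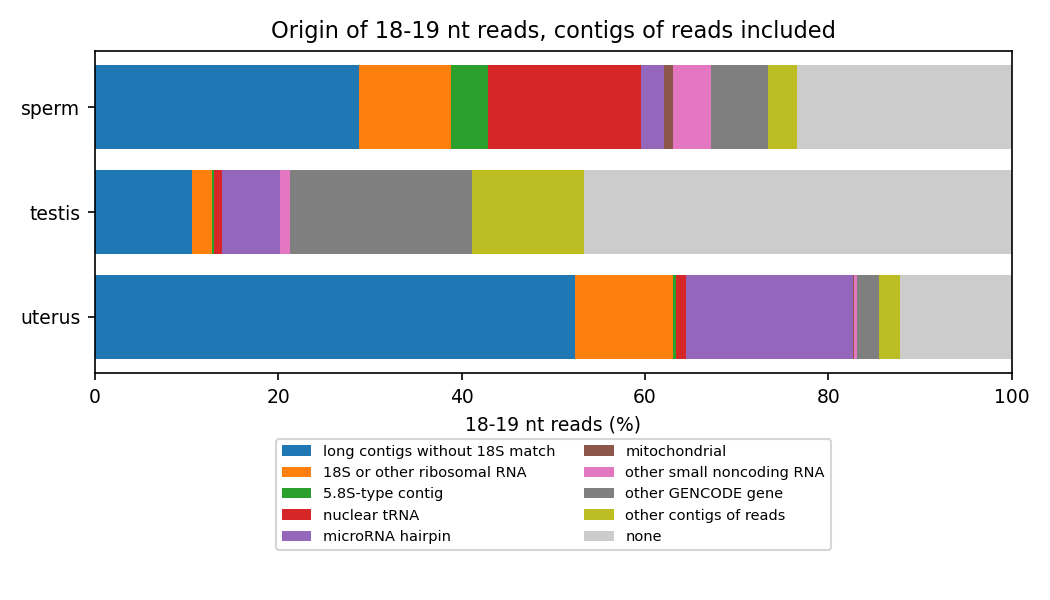
Share of 18-19 nt reads (percent) by origin, 1 bar per library, with contigs of reads used as additional references. Ribosomal classes, which include long contigs placed by length alone, hold 63.4% in uterus, 42.9% in sperm and 12.96% in testis. The share with neither a match nor a contig is largest in testis (46.7%), where other contigs of reads, of unknown origin, hold a further 12.2%.

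Several annotated genes that drew reads overlap these ribosomal contigs. Lars2, which encodes a mitochondrial leucyl-tRNA synthetase (chr9:123366927-123462666), was matched by 20535 reads in uterus, of which 96.2% lay on ribosomal contigs. All 6487 uterus reads on the hairpin Mir6236 (chr9:110281287-110281409) also lay on them, as did 99.8% of the 11715 reads on AA474408. For these genes a full match does not tell their transcripts from ribosomal RNA.

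A sequence near the start of the first contig, of 3046 bases, was the most abundant of 18 or 19 nt in both sperm and uterus. It had 19114 sperm reads, 120 testis reads and 27293 uterus reads, which is 11.9%, 1.14% and 4.08% of the reads of that size. Scaled to library size, sperm was 241-fold above testis (202 to 291) and stood at 0.709 of uterus (0.696 to 0.722). Per read of 18 and 19 nt, sperm was 10.45-fold above testis and 2.91-fold above uterus. Longer reads with the same start numbered 185211 (sperm), 2219 (testis) and 84049 (uterus). Along this contig the libraries differed in how far the reads were spread. In sperm 64.2% of its 33441 reads began at this base (63.7 to 64.7), in testis 18.8% of 644 (15.8 to 22.02) and in uterus 12.5% of 222302 (12.3 to 12.6). The uterus reads began at 2390 positions of the contig, the sperm reads at 1041 and the testis reads at 284, counts that also grow with the number of reads.

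**Figure D3:**
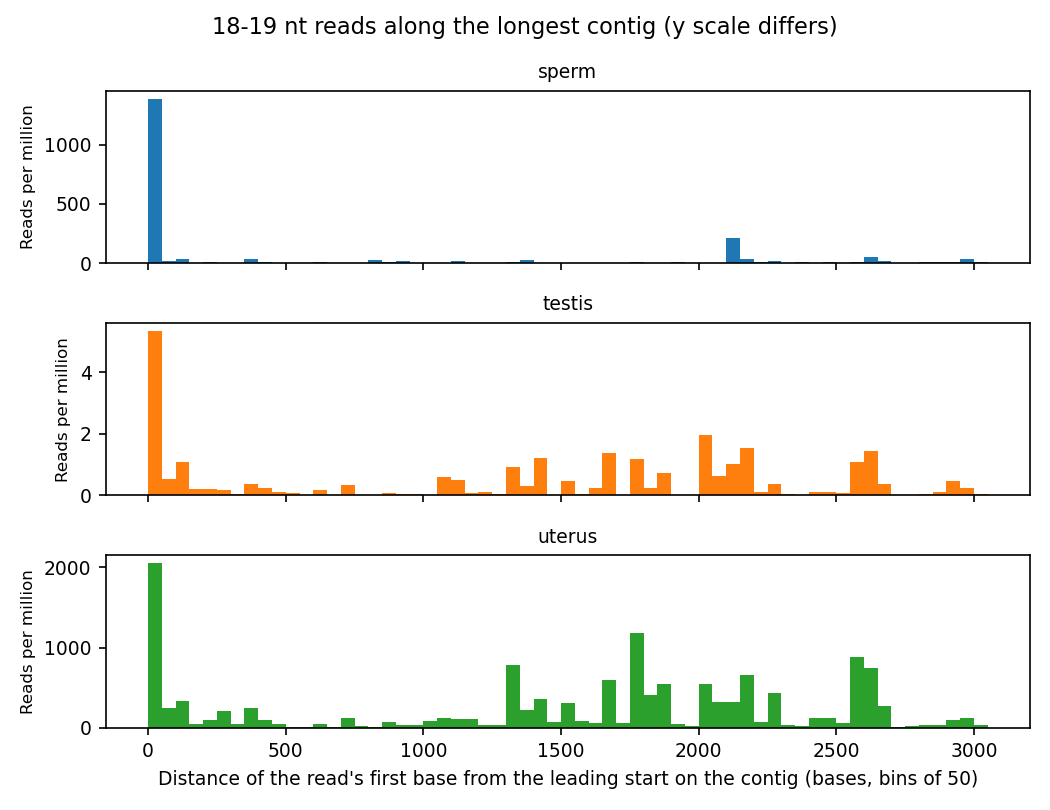
Reads of 18-19 nt per 1000000 library reads along the first contig, of 3046 bases, in bins of 50 bases. Distance is that of the first base from the leading start, with 1 panel per library and its own scale. In sperm the first bin holds 1389 reads per 1000000 and the next highest 214, while uterus has 2047 in the first bin and 1186 in the bin that starts at base 1751.

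The second most abundant sequence of sperm, on the contig like 5.8S ribosomal RNA, had 5012 reads there and 0 in both other libraries. This put sperm at least 2532-fold above testis and at least 1690-fold above uterus, with a count of 0 taken as 3 reads. Scaled to the reads of 18 and 19 nt instead, these bounds were 109.6-fold and 6952-fold. Longer reads with the same start were present in all 3 libraries, 191327 in sperm, 6974 in testis and 1429 in uterus. The third, on a long contig without 18S matches, had 4570 sperm reads, 0 testis reads and 17 uterus reads, and only 186 longer sperm reads began with it. Among the sequences that match Gm42418, the leading ones of sperm had 1511 reads (0 in testis and in uterus), 862 and 654, and those of uterus 880, 682 and 620.

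Sperm held most of the fragments that begin at a tRNA's 5′ end. By the pattern at bases 8 to 15, 14.6% of the sperm reads (14.4 to 14.8), 0.256% of the testis reads (0.169 to 0.372) and 2.06% of the uterus reads (2.02 to 2.09) counted as 5′ ends. Of these 13764 uterus reads, 9909 also match a microRNA, mainly miR-27, whose bases fit the pattern, and 2443 others lie on ribosomal contigs. Without microRNA matches, but with the reads on ribosomal contigs still included, the shares were 14.6%, 0.237% and 0.576%. Where a longer read had to show an anticodon stem-loop, 10.5% of the reads remained in sperm, 0.0474% in testis and 0.0898% in uterus. The pattern also occurs by its letters alone: among distinct sequences of a single GENCODE gene it was met in 0.648% in sperm, 0.402% in testis and 0.266% in uterus.

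Leucine and alanine tRNAs led the sperm fragments. Outside the annotated serine genes, each start took the most frequent anticodon among longer reads with the same 18 bases. tRNAs that share those bases cannot be told apart by this rule. Leu-CAG had 6284 sperm reads, 0 testis reads and 86 uterus reads, and Ala-CGC had 4913, 1 and 39. Serine tRNA genes followed with 2407 sperm reads, 0 testis reads and 33 uterus reads, then Asp-GTC with 1720, 0 and 18. Val-GAC had 1689, 0 and 15 reads by this rule. Val-CAC had 1 sperm read by it, while a contig read as a Val-CAC tRNA held 2139 sperm reads of 18 and 19 nt. RefSeq lists 0 genes for Val-GAC and 8 for Val-AAC, and likewise 0 for Leu-GAG and 5 for Leu-AAG. As background, the first anticodon base A is converted to inosine in such tRNAs and is then read as G. Of the glycine tRNAs, Gly-TCC had 111 reads in sperm and 180 in uterus and Gly-GCC 106 and 160, while Gly-CCC had 33 in sperm and 0 in uterus. Fragments that end in sperm at 18 or 19 nt were few beside the longer reads with the same start: the 19 nt Leu-CAG sequence had 4054 reads against 136094 longer ones. No anticodon could be read for 4166 of the sperm reads and 3225 of the uterus reads, counts from which reads on ribosomal contigs were not left out.

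Few reads of this length ended in CCA, as 3′ fragments of tRNAs do. The main pattern, CCA at the end with T loop letters within the first 6 bases, gave 39 sperm reads, 4 testis reads and 42 uterus reads. That pattern fits longer fragments, since a CCA end as short as these mostly starts after the T loop. It missed most reads of the Trp-CCA end given below, which alone had 76 in sperm and 352 in uterus. Its low counts therefore cannot show that 3′ ends were rare. An end in CCA alone was found for 0.740% of sperm reads, 1.73% of testis reads and 1.25% of uterus reads. Among distinct sequences of a single GENCODE gene, where CCA occurs by its letters alone, the shares were 0.518%, 1.47% and 0.765%. With the T loop required in a longer read of the same library, a rule added after the data were seen, 560 reads remained in sperm, 97 in testis and 4250 in uterus. Of sequences assigned to a tRNA contig the leading ones, with the CCA in capitals, were as follows.
Trp-CCA tRNA end: atcacgtcggggtcaCCA
Val-CAC tRNA end: aaccgggcggaaacaCCA
The first had 76 sperm reads, 3 testis reads and 352 uterus reads, and the second 50, 2 and 226. Both had more reads in uterus, which held 669066 reads of this size against 160777 in sperm. The 5′ ends of Leu-CAG and Ala-CGC went the other way, while those of Gly-TCC and Gly-GCC did not.

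An 18 nt sequence of U5 and a 19 nt sequence of U12, both spliceosomal, were read at those lengths in sperm alone. The 18 nt start of U5, the snRNA that aligns exon ends during splicing, matched Rnu5g (chr9:65201726-65201841) from its first base, and 8 annotated genes in all. It had 3444 reads in sperm and 0 in testis and uterus, so sperm was at least 1740-fold above testis and at least 1162-fold above uterus. Scaled to the reads of 18 and 19 nt instead, these bounds were 75.3-fold and 4777-fold. Only 65 longer sperm reads began with this U5 sequence. An internal sequence of U12, the snRNA that recognises the branch point of minor introns, from base 70 of Rnu12 (chr15:83149644-83149794), had 799 reads in sperm and 0 in both other libraries. The leading small noncoding sequence of testis, which matches Gm22906 and many similar genes, went the other way, with 55 testis reads, 1 sperm read and 3 uterus reads. Among mitochondrial transcripts the start of the serine tRNA mt-Ts2 led in sperm with 246 reads, against 0 in testis and 51 in uterus. By genes, sperm had 395 reads on the large ribosomal RNA mt-Rnr2, 346 on mt-Ts2 and 308 on mt-Th, and uterus 371 on mt-Rnr2 and 212 on the small ribosomal RNA mt-Rnr1. Testis had 2 mitochondrial reads in all, both on mt-Rnr2.

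In uterus the shortened microRNAs were led by the let-7 family, which promotes differentiation and is abundant in adult tissues. The 19 nt let-7b-5p sequence had 18944 uterus reads, 29 sperm reads and 5 testis reads, and that of let-7i-5p 11725, 0 and 4. The 19 nt let-7c-5p sequence, which shares only its first 18 bases with let-7a-5p, had 9876 in uterus, 231 in sperm and 12 in testis. The 18 nt sequence of miR-27a-3p and miR-27b-3p had 7089, 4 and 1. Mir143 gave 14750 uterus reads, 751 sperm reads and 35 testis reads. The hairpins lie at chr15:85707319-85707403 (Mirlet7b), chr10:122985640-122985724 (Mirlet7i), chr13:63300712-63300784 (Mir27b) and chr19:29135279-29135375 (Mir101b), all in GRCm38 and annotated as noncoding exons. In testis let-7f-5p led the microRNAs with 129 reads of 18 nt and 52 of 19 nt.

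Most microRNA reads of this length kept the annotated start. In uterus 71.7% of the hairpin reads (71.4 to 71.9) began at the first base of a RefSeq mature sequence, in testis 64.8% (61.1 to 68.4) and in sperm 51.2% (49.7 to 52.7). Reads that ended at the last base of a mature sequence without its start were 2.60%, 2.09% and 2.39%. Reads within a mature sequence made up 0.862%, 2.38% and 4.36%. The remaining reads reached beyond a mature sequence of the table, 24.9% in uterus, 30.7% in testis and 42.1% in sperm, a group that includes hairpins for which no mature sequence was used here. The 129689 hairpin reads of uterus, on which its shares rest, include the 6487 on Mir6236, all on ribosomal contigs. Sperm had 10 reads on Mir6236 and testis 6.

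Trimmed reads were a small part of most microRNAs. As a share of the reads of 18 to 25 nt with the same start, reads of 18 and 19 nt were 0.848% in uterus (0.843 to 0.853), 0.576% in sperm (0.552 to 0.600) and 0.403% in testis (0.367 to 0.442). With 20 nt reads counted as trimmed too, the order turned, with 4.24% in sperm, 3.02% in testis and 2.42% in uterus. The median over microRNAs with at least 100 such reads was 1.15% in uterus (187 microRNAs), 0.234% in sperm (104) and 0.103% in testis (82). Of 79 microRNAs measured in both sperm and uterus 24 had the higher share in sperm, and of 57 in both testis and uterus 6 had it in testis.

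A few microRNAs departed from this. In uterus 69.3% of the 14279 reads of miR-27a-3p and miR-27b-3p, regulators of lipid metabolism and angiogenesis, were 18 or 19 nt long (68.6 to 70.1), though their annotated length is 21 nt. The share was 49.1% for miR-199a-5p (47.0 to 51.3), 26.1% for miR-872-5p (24.2 to 28.1), 14.9% for miR-23a-3p (14.5 to 15.3) and 14.5% for let-7i-5p (14.3 to 14.7). It was 36.7% for miR-101b-3p (35.9 to 37.4), but RefSeq gives its mature form as 19 nt, and 5667 of those 5730 reads have that length. At the other end miR-140-3p had 12 short reads of 55946 in uterus and 0 of 3050 in sperm, and let-7g-5p had 48 of 215468 in uterus. Among microRNAs with at least 1000 reads of 18 to 25 nt, miR-30e-5p was highest in sperm with 7.005% of 1813 reads (5.87 to 8.28), followed by miR-30a-5p with 6.14% of 7080 (5.60 to 6.73) and miR-26a-5p with 2.73% of 2419. Below that minimum miR-22-3p reached 16.1% of 267 reads in sperm (11.9 to 21.1). In testis miR-881-3p had 0.891% of 1347 reads and miR-202-5p 0.876% of 2512, and below the minimum miR-872-5p had 9.01% of 111 (4.40 to 15.9).

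For some microRNAs the short reads formed a separate peak at 19 nt rather than the tail of the longer ones. In sperm miR-30a-5p had 1 read of 18 nt, 434 of 19 nt and 37 of 20 nt, and miR-30e-5p 0, 127 and 10. In uterus miR-199a-5p had 19, 1045 and 46 reads of these lengths, and let-7i-5p 1052, 11749 and 6434. More reads at 19 nt than at 18 and at 20 nt were counted for 6 of 15 microRNAs with at least 20 reads of 19 nt in sperm, 0 of 4 in testis and 10 of 68 in uterus. This count was chosen after the values were seen. The RefSeq mature sequences of 4 with such a peak and of miR-27 follow, with the seeds in capitals.
let-7i-5p: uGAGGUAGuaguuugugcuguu
miR-30a-5p: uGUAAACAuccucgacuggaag
miR-30e-5p: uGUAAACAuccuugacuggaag
miR-22-3p: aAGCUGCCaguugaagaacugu
miR-27a-3p: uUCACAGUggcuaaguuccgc
miR-27b-3p: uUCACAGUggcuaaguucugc
Of these, miR-30a-5p and miR-30e-5p share their seed, and so do miR-27a-3p and miR-27b-3p.

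**Figure D4:**
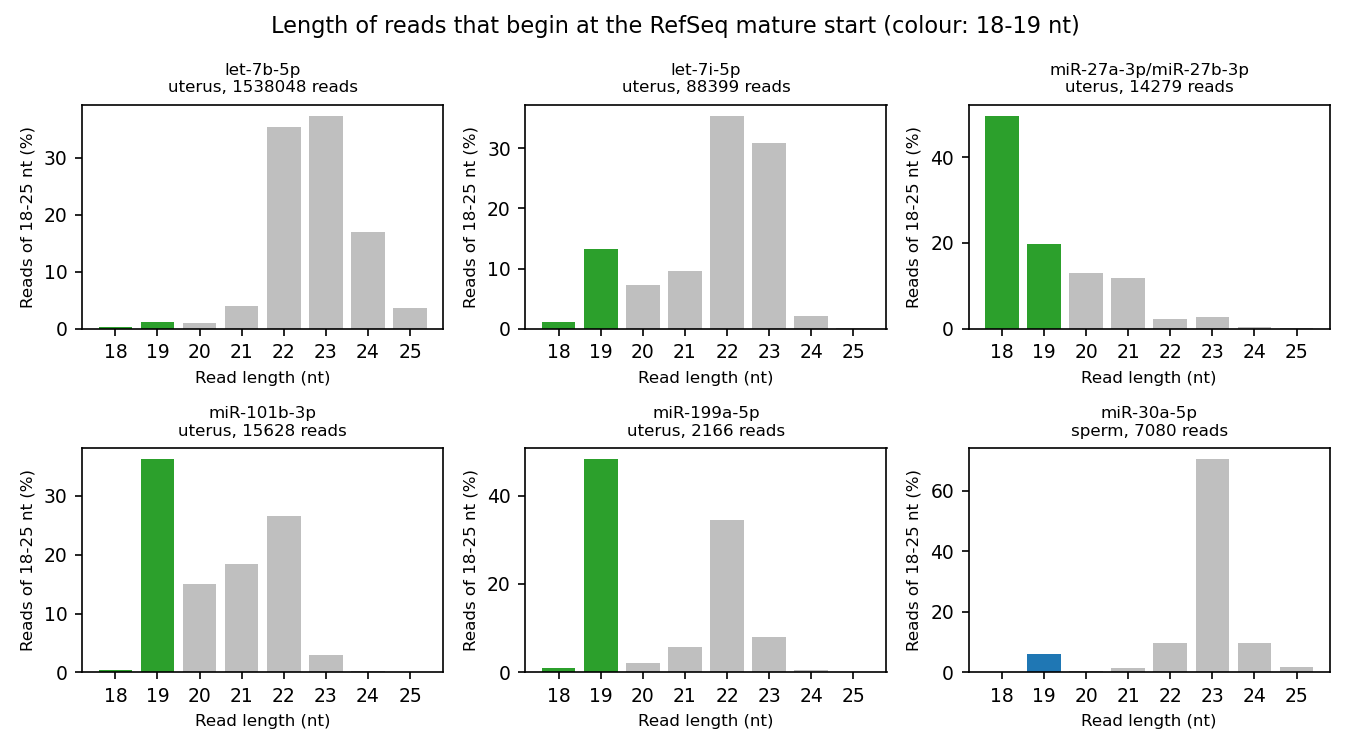
Share of the 18-25 nt reads (percent) at each length for 6 microRNAs, reads that begin at the RefSeq mature start, with 18 and 19 nt in colour. In uterus miR-27 reads are most frequent at 18 nt and fall with length, miR-101b-3p and miR-199a-5p have their highest bar at 19 nt, and miR-30a-5p in sperm has 434 of its 7080 reads at 19 nt.

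By groups of known microRNAs, the let-7 family had 57631 short uterus reads, 434 sperm reads and 261 testis reads, with trimmed shares of 0.603%, 0.346% and 0.395%. A group listed for smooth muscle, with 5 of 8 members in the mature table, had 2988 short uterus reads, 2 sperm reads and 1 testis read. In uterus 1887 of these came from miR-199a-3p and miR-199b-3p and 1064 from miR-199a-5p, and Mir143, counted by its hairpin, is not among them. The group of X-linked testis microRNAs had 60 short reads in testis, 50 in sperm and 0 in uterus, out of 6365, 11278 and 0 reads of 18 to 25 nt. The male germ cell group had 215 short reads in sperm, of which miR-184-3p gave 214, 25 in testis and 12 in uterus. The leukocyte group had 97 uterus reads, 3 sperm reads and 0 testis reads, and its trimmed share in uterus was 6.15%. Of the 97, miR-142a-5p gave 87, which were 35.9% of its own 242 reads. The epithelial group had 63 in uterus, 63 in sperm and 1 in testis, and the Hox cluster group 807, 46 and 1. Of the markers of other cells, sperm held reads on Mir143 (751, smooth muscle), Mir142 (53, leukocyte), Mir141 (33) and Mir200c (16, both epithelial), Mir145a (2) and Mir144 (1, erythroid), with Mir150, Mir223 and Mir451a at 0. The part of such cells in the sperm values was not tested. Of the germ cell markers, the hairpin Mir34c had 14 sperm reads, 32 testis reads and 49 uterus reads, which per 1000000 reads was highest in uterus (3.09, against 0.892 in sperm and 1.35 in testis). The hairpin Mir465a had no full-length match in any library, and by the mature start alone miR-465a-5p had 1 testis read. The start shared by miR-465a-3p, miR-465b-3p and miR-465c-3p had 2 sperm reads, 1 testis read and 0 uterus reads.

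The first base differed between libraries. In testis 54.3% of the reads began with U (71.3% at 18 nt and 48.0% at 19 nt), against 29.99% in uterus and 20.9% in sperm. Sperm reads began most often with G, 34.2%, and 90.01% of its tRNA reads did so. That lead rested on abundant sequences: U led in sperm by distinct sequences (30.8%, with G at 25.5%) and without the 10 most abundant (29.5%, with G at 28.9%). Among microRNA reads U led in all 3 libraries, at 68.3% (sperm), 62.4% (testis) and 67.9% (uterus). Of reads without a match 57.8% began with U in testis, 21% in sperm and 20.5% in uterus. As background, piRNAs favour U as their first base.

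**Figure D5:**
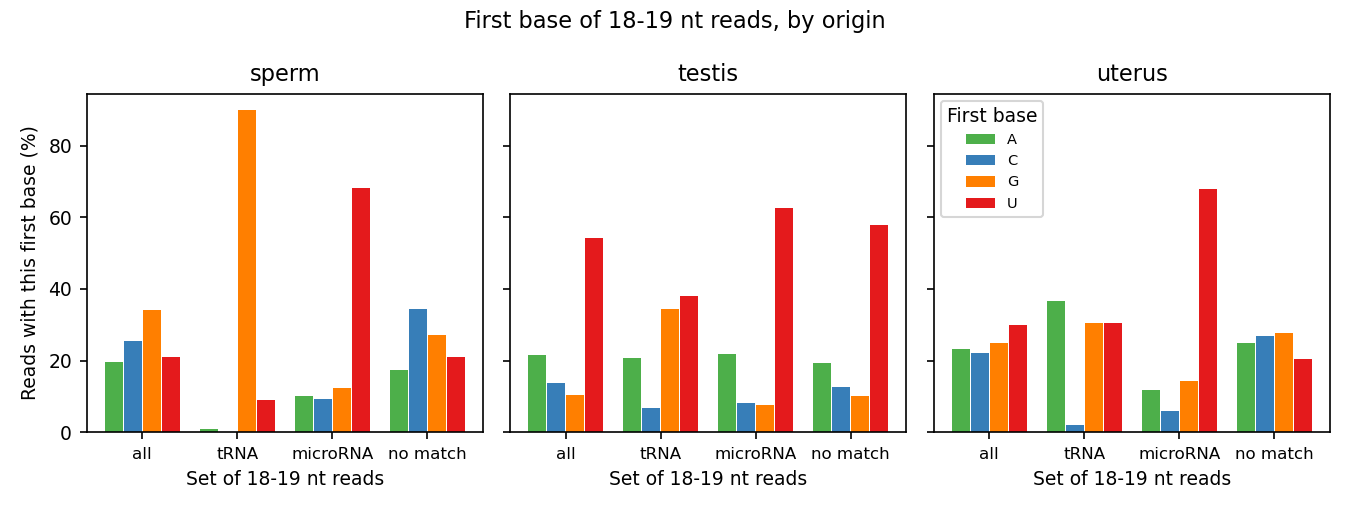
Share of 18-19 nt reads (percent) by first base for all reads, tRNA, microRNA and unmatched reads, 1 panel per library, with sequences that match both a microRNA and the tRNA pattern counted as microRNA. G leads the sperm tRNA reads (90.01%), U leads the microRNA reads of every library, and U leads the unmatched reads in testis only (57.8%).

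In testis the leading sequences had another makeup. The most abundant, of 18 nt and without a match, had 780 reads, 7.39% of the testis reads of this size (6.90 to 7.91), and 0 in sperm and uterus, so testis was at least 171-fold above sperm. Longer testis reads with this start numbered 29. Among annotated genes 1700006A11Rik had 121 reads, Ago2, which encodes an Argonaute protein, 83, and Ipmk, an inositol phosphate kinase, 50. The leading sequence of Ago2 (chr15:73095844-73184935) lies in the 3′ UTR and had 73 reads, that of 1700006A11Rik (chr3:124400989-124426040) lies in the coding sequence and had 63, and that of Ipmk (chr10:71347763-71433327) in the coding sequence and had 49. None of these was read in sperm or uterus. Among sperm reads that match 1 gene only, Tmem38b led the other genes with 488 reads on 2 sequences of its 3′ UTR, while by all matching reads Lars2 had 1215 and Tmem38b 1041. Their letters also read as the generally known end of 5S ribosomal RNA, and the 5S genes of GENCODE held no full match to them.

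Most short reads were the start of a longer read of the same library. This held for 90.8% of the reads in uterus (90.8 to 90.9), 82.2% in sperm (81.98 to 82.35) and 68.4% in testis (67.5 to 69.3). The share was 99.8% for uterus microRNA reads, 99.97% for sperm tRNA reads and 40.3% for sperm reads on other GENCODE genes. Neither a start nor an end of a longer read was 7.58% in uterus, 14.3% in sperm and 22.01% in testis. The bases that follow in the longer reads set testis apart. TCGTA are the first bases of a widely used small RNA 3′ adapter. Among testis 18 nt reads that begin a read at least 5 bases longer, TCGTA was the most frequent continuation for 48.5% (46.4 to 50.6). The share was 0.0393% in sperm and 0.102% in uterus. In testis these reads came from 27 of 695 sequences (3.89%). Without the 780 reads of the leading sequence the testis share was 21.9% (19.8 to 24.1). In testis it was 5.68% at 19 nt, 9.54% at 20 nt, 8.78% at 21 nt and 4.55% at 22 nt, and in uterus 1.57% at 22 nt. The part of the adapter in the testis values was not tested.

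Sequence by sequence, most calls lay in one direction, which the minimum count largely fixed for testis. A sequence was called when its larger count reached 100 and its counts, scaled to library size, lay at least 4-fold apart. With 10552 testis reads of this size, few testis sequences could reach 100. Most members of the pairs with testis therefore entered through the other library, where they are high. The direction of these calls is not a result about the sequences. Between sperm and testis 132 of 136 were higher in sperm and 4 in testis, where over all sequences of 18 to 44 nt 16.7% were higher in sperm and 76.3% in testis. Between sperm and uterus 93 of 1195 were higher in sperm and 1045 in uterus, beside 44.6% and 51% over all lengths. Between testis and uterus 3 of 1095 were higher in testis and 1092 in uterus, beside 77.8% and 22.1%. Per read of 18 and 19 nt, 74 were higher in sperm than in testis, and 167 higher in uterus than in testis. This removes the different share of this size in each library, but the same minimum count applied. The 4 sequences higher in testis than in sperm were 3 without a match and the 18 nt form of let-7f-5p, with 129 reads in testis and 14 in sperm, a 6.08-fold difference (3.50 to 11.4). Against uterus sperm was highest for the 5.8S-type sequence, for Asp-GTC with 1587 reads against 1 (1606-fold, 288 to 63460) and for U5, and uterus for let-7i-5p, at least 3863-fold, a Mir143 sequence, at least 1989-fold, and miR-101b-3p, at least 1867-fold.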

How the data were processed

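Counts of distinct sequences were deposited by the authors as 1 table per library, with SEQUENCE and COUNT per the file headers. The labels' protocols give adapter ligation, RT-PCR and sequencing, and the submitters' processing notes name build mm9. Adapter trimming and length limits, which decide what reads of 18 nt remain, were not given in the sources used here. In sperm and in testis 1 line without a sequence was left out.

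Sequences of 18 and 19 nt were matched in full to GENCODE M21 transcripts (GRCm38) and RefSeq hairpins (GRCm38.p6). Shares carry Clopper-Pearson intervals and ratios conditional binomial ones (scipy 1.17.1). A count of 0 was taken as 3. Contigs joined reads by overlaps of 19 bases supported by at least 5 reads. The contigs, the T loop rule for 3′ tRNA ends and the count of adapter letters were chosen after the data were seen. The scripts were tested on simulated data.

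Named were the 10 leading sequences per library, the 3 leading of each origin, the 10 microRNAs with most short reads and, of those with at least 1000 reads, the 5 highest and 5 lowest trimmed shares, 8 ratios per direction and 5 genes per library. Unmatched sequences were counted and not printed, except the contig start, chosen after its values were seen. The members and lists were chosen with earlier results of these data known. Sequences of chromosome 18 are not reported here.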

Additional observations from a re-analysis of the deposited data

How the results depend on the processing

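Of 243 values recomputed under another choice, 72 moved by less than their counting interval or 1.5 times, and the others moved. The cause was not tested. No paired analysis was possible because each group has 1 library. Values are given for sperm, testis and uterus in this order.

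The share of the library was 0.416%, 0.0120% and 1.501% with 18 nt alone, 0.608%, 0.0324% and 2.71% with 19 nt alone, and 1.87%, 0.104% and 8.28% with 18 to 20 nt. It was 3.12%, 0.222% and 16.4% by distinct sequences, and 0.869%, 0.0261% and 3.88% without single-read sequences. In each of these uterus stayed highest and testis lowest.

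The share without a match was 57.0%, 79.9% and 69.3% at 18 nt, 67.9%, 67.1% and 64.8% at 19 nt, 74.2%, 72.2% and 78.7% by distinct sequences, and 60.6%, 68.5% and 65.0% without single reads. It was 61.4%, 69.6% and 63.3% with 1 mismatch allowed, and 67.5% in uterus without sequences of several classes. With contigs added, 23.4%, 46.7% and 12.2% had neither a match nor a contig. Contigs of unknown origin then held a further 3.17%, 12.2% and 2.255%.

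The microRNA share was 1.37%, 2.69% and 1.39% by distinct sequences, 3.01%, 10.2% and 19.9% without single reads, and 3.03%, 6.87% and 19.3% with 1 mismatch. In sperm and uterus it was 1.45% and 11.8% at 18 nt, 3.38% and 21.3% at 19 nt, and 2.32% and 18.03% without sequences of several classes. In uterus it was 19.4% with microRNA placed first and 18.3% with contigs.

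The share of reads that begin with U was 30.8%, 49.1% and 22.8% by distinct sequences, and 29.5%, 50.1% and 24.4% without the 10 most abundant, so sperm then stood above uterus. The trimmed microRNA share was 0.0765%, 0.148% and 0.215% at 18 nt, and 4.24%, 3.02% and 2.42% at 18 to 20 nt, where the order of the libraries turned. In uterus it was 0.904% with the start within 1 base.

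The 5′ tRNA share was 10.5%, 0.0474% and 0.0898% with an anticodon in a longer read. In sperm and uterus it was 1.52% and 0.275% by distinct sequences, and in uterus 0.576% without microRNA matches. The 3′ share was 0.740%, 1.73% and 1.25% with CCA alone, and 0.348%, 0.919% and 0.635% with a T loop in a longer read. By distinct sequences it was 0.0172% and 0.0302% in sperm and uterus, with the main 3′ pattern, which fits longer fragments. The share that begins a longer read was 68.9%, 37.6% and 83.3% with longer reads of at least 10 counts, and 78.9%, 64.3% and 86.5% with those of 24 nt or more.

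Sequences at least 4-fold apart, with minimums of 30 and of 300 reads, numbered 406 and 45 higher in sperm than in testis, 17 and 1 higher in testis than in sperm, 243 and 38 higher in sperm than in uterus, and 2254 and 357 higher in uterus than in sperm. Against uterus 17 and 1 were higher in testis, and 2421 and 366 were higher in uterus than in testis. Per read of 18 and 19 nt, 74 were higher in sperm than in testis and 167 higher in uterus than in testis.

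A count of 0 allows up to 0.191 reads per 1000000 in sperm, 0.126 in testis and 0.189 in uterus.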
